A study of Homo sapiens with 8 samples.

Results

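FTX is a long noncoding RNA gene of the X-inactivation centre, and its introns carry the hairpins of hsa-miR-374a, hsa-miR-374b, hsa-miR-421 and hsa-miR-545. The 5 mature miRNAs described here are hsa-miR-374a-5p, hsa-miR-374a-3p, hsa-miR-374b-5p, hsa-miR-374b-3p and hsa-miR-421, out of 2575 names in each count file. They were chosen by name, as products of this locus, with results of the same comparison already known. Their values with and without bacteria are therefore a description, with no test of their own. All 5 had enough reads to enter the fit across all miRNAs, which held 480 names.

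The cells were HCT116, an adherent human colorectal cancer line, at passages 16 to 19. In the ETBF group (4 libraries) they shared a culture for 6 hours with enterotoxigenic Bacteroides fragilis, a bacterium of the gut whose toxin is a metalloprotease, at 500 bacteria per cell. In the control group (4 libraries) they received bacterial medium without ETBF. The titles call these libraries untreated, and the labels give no time for them. Both groups are 1 line with no genetic change named in the labels, and nothing says that replicates were separate cultures, so the spread between libraries may be technical in part. Library totals ran from 2591655 to 4706156 counts with ETBF and from 5243400 to 6522542 in controls.

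A hairpin can release a mature miRNA from each side, its 5p and 3p arms. Bases 2 to 8 of the mature strand, the seed, choose most of the mRNAs that it represses. The miR-374a and miR-374b hairpins are paralogs, and miR-374a-5p is known for raising Wnt signalling in breast cancer. MiR-421 is known for repressing the DNA damage kinase ATM.

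In GENCODE release 29 on GRCh38, FTX (ENSG00000230590.9) lies on the minus strand at chrX:73946555-74293574. The miR-374b hairpin lies at chrX:74218547-74218618 and the miR-421 hairpin at chrX:74218377-74218461, with 85 bases between them. Both are intronic in all 7 FTX transcripts that span them. The miR-374a hairpin, at chrX:74287286-74287357, is 68667 bases from that of miR-374b, nearer the start of FTX, and intronic in all 13 transcripts that span it. The hairpin of miR-545 is 76 bases from that of miR-374a. These positions are those of GRCh38, while the authors' counts were made on GRCh37.p5 and carry no coordinates.

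The mature strands below, from RefSeq on GRCh38.p14, show how the products differ, with the seed in capitals. Sequences were matched for 4 of the 5 miRNAs, and hsa-miR-374a-5p is named only.
hsa-miR-374b-5p: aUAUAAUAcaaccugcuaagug
hsa-miR-374b-3p: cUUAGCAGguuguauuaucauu
hsa-miR-374a-3p: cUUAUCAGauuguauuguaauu
hsa-miR-421: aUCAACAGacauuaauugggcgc

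The 4 seeds shown differ from each other. The paralogous 3p arms are identical at 18 of 22 positions. Counted from the 5′ end, with the base of miR-374b-3p first, they differ by G5U inside the seed and by G9A, A17G and C19A outside it. Reads of such close sequences can be placed on the wrong paralog, and the authors' mismatch setting is not given in the sources used here, so the split between paralogs is uncertain to that extent.

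The miR-374b hairpin is shown whole because its inverted repeat bears on how its reads were counted. Capitals mark the 5p arm and then the 3p arm. The miR-421 hairpin follows with its mature strand in capitals.
MIR374B: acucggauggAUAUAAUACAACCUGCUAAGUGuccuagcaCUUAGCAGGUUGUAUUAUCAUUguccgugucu
MIR421: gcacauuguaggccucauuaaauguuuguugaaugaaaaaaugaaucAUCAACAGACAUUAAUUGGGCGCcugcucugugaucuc

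A further hairpin, miR-374c, is annotated on the opposite strand of the same place. Its 3p arm is the exact reverse complement of hsa-miR-374b-5p at the same coordinates, and its 5p arm shares a run of 20 bases with hsa-miR-374b-5p in the same sense. The strand setting of the counting is not stated.
hsa-miR-374c-5p: aUAAUACAaccugcuaagugcu
hsa-miR-374c-3p: cACUUAGCagguuguauuauau

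The files put nearly all of these reads under miR-374b. Hsa-miR-374b-5p had 1997 to 4351 counts in a library, while the name hsa-miR-374c-3p, at the same GRCh38 coordinates on the other strand, had 0 in all 8 libraries, so the counts of these names were not shared between the strands. A count of 0 allows up to 3 counts, or 0.645 to 1.12 CPM with ETBF and 0.447 to 0.597 CPM in controls. That limit covers counting error only. The name hsa-miR-374c-5p held 3 counts with ETBF and 4 in controls, summed over libraries. Hsa-miR-545, the neighbour of miR-374a, was as scarce: its 5p arm had 2 counts with ETBF and 1 in controls, and its 3p arm had 3 in each group. None of these 4 names was tested.

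With ETBF the 4 arms of miR-374a and miR-374b were more abundant than in controls, the 3p arms by larger factors than the 5p arms, and miR-421 overlapped between the groups. Levels are given as CPM, the count scaled to a common library size by the trimmed mean of M-values (TMM), and log2 fold changes are ETBF over control with their standard error (SE). Errors are SDs over the 4 libraries of a group. Summed over the 5 miRNAs the level was 1693 ± 104 CPM with ETBF and 1205 ± 92.7 CPM in controls. The ETBF libraries spanned 1582 to 1833 CPM and the control libraries 1079 to 1303 CPM.

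Across all 480 miRNAs the edgeR quasi-likelihood test, at a Benjamini-Hochberg adjusted p under 0.05, called 95 higher with ETBF (19.8%) and 70 lower. With upper-quartile scaling these counts were 71 and 89. Of the 5 FTX miRNAs, 4 were among those called higher and 0 among those called lower. Every ETBF library lay above every control library for the same 4, and for 18.1% of all 480. As the 5 were proposed with this comparison known, nothing is read from these counts. The median log2 fold change over all 480 was 0.01.

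**Figure D1:**
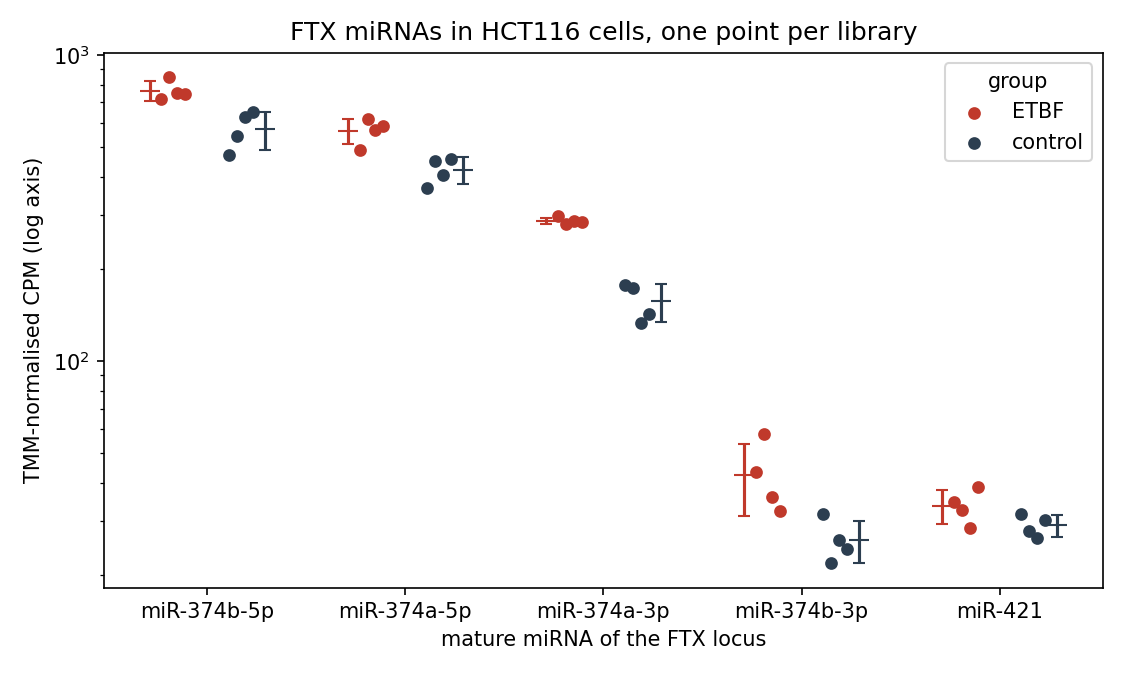
Level of each FTX miRNA in TMM-normalised CPM on a log axis. Each point is 1 library, ETBF left and control right, and the bars give the mean and SD of 4 libraries. The ETBF points stand above the control points for the 4 miR-374 arms and overlap them for miR-421, whose ETBF libraries run from 28.5 to 38.9 CPM and whose controls run from 26.4 to 31.8 CPM.

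The most abundant product was hsa-miR-374b-5p, ranked 69 of the 480 by its mean level. It was at 717, 845, 749 and 747 CPM in ETBF replicates 1 to 4, against 471, 543, 625 and 649 CPM in control replicates 1 to 4. All ETBF libraries were above all controls, and control replicates 1 and 2 were the lowest. The means were 765 ± 55.9 CPM with ETBF and 572 ± 81.1 CPM in controls, a log2 fold change of 0.42 (SE 0.10).

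Its paralog hsa-miR-374a-5p was at 490, 617, 568 and 585 CPM in ETBF replicates 1 to 4, against 367, 452, 407 and 457 CPM in the controls. The groups did not overlap, and the lowest ETBF library, replicate 1, stood close to control replicate 4. Its ETBF mean of 565 ± 53.8 CPM was 1.34 times the control mean, a log2 fold change of 0.42 (SE 0.09).

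The 3p arm of the same hairpin, hsa-miR-374a-3p, showed the largest change of the 5. It was at 297, 281, 287 and 285 CPM in ETBF replicates 1 to 4, against 178, 173, 134 and 142 CPM in the controls. The ETBF libraries lay close together, with a coefficient of variation of 2.46%, below the 3.07% that counting error alone gives, while the controls varied by 14.0%. The ETBF mean of 287 ± 7.06 CPM was 1.83 times the control mean of 157 ± 22.0 CPM, a log2 fold change of 0.87 (SE 0.10).

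The 3p arm of the other hairpin, hsa-miR-374b-3p, was far scarcer, with 87 to 246 counts in a library. It was at 43.6, 57.8, 36.0 and 32.6 CPM in ETBF replicates 1 to 4, against 31.6, 22.0, 26.04 and 24.3 CPM in the controls. The groups did not overlap, but ETBF replicate 4 stood only just above control replicate 1. The ETBF libraries varied by 26.4%, against the 8.31% that counting error gives. The log2 fold change was 0.73 (SE 0.16), and 0.52 without ETBF replicate 2, the highest library.

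Hsa-miR-421, from the hairpin next to that of miR-374b, had 104 to 204 counts in a library. It was at 34.6, 32.7, 28.5 and 38.9 CPM in ETBF replicates 1 to 4, against 31.8, 27.8, 26.4 and 30.4 CPM in the controls. The groups overlapped, with ETBF replicate 3 below control replicates 1 and 4. Its log2 fold change was 0.20 (SE 0.12), and it was the 1 member that was not called. The value was 0.13 without ETBF replicate 4, the highest library, and 0.12 with upper-quartile scaling.

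Taken by hairpin, the miR-374a arms summed to 852 ± 46.7 CPM with ETBF and 577 ± 41.4 CPM in controls, a ratio of 1.48 between the means. The miR-374b arms summed to 807 ± 64.9 CPM with ETBF and 598 ± 78.8 CPM in controls, a ratio of 1.35. The sum for miR-374a was above that for miR-374b in the ETBF means and below it in the control means, by less than the SD of either in both groups.

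The shares of the 5 in their joint count overlapped between the groups for every member. Hsa-miR-374b-5p held 45.1% ± 0.780 of it with ETBF and 47.3% ± 3.78 in controls, and hsa-miR-374a-5p held 33.3% ± 1.62 with ETBF and 34.9% ± 1.62 in controls. Hsa-miR-374a-3p held 17.04% ± 1.43 with ETBF and 13.2% ± 2.70 in controls. The remaining names, hsa-miR-374b-3p and hsa-miR-421, held between 1.71% and 3.15% each in any library.

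The order of levels within a library was tested, since it does not rest on the comparison of groups, though the neighbours were ranked on the same 8 libraries. Differences in log2(count + 0.5) between neighbours in the order were set against 0 over all 8 libraries by a two-sided exact sign-flip permutation test, adjusted over the 4 neighbouring pairs. Mature miRNAs have nearly the same length, so their counts were compared directly. Hsa-miR-374b-5p was 1.36 times hsa-miR-374a-5p and higher in 8 of 8 libraries (exact permutation p = 0.00781, adjusted p = 0.0104), where 0.00781 is the lowest p that 8 libraries can give. Hsa-miR-374a-5p was 2.30 times hsa-miR-374a-3p, and hsa-miR-374a-3p was 6.45 times hsa-miR-374b-3p, each in 8 of 8 libraries with the same exact p and adjusted p. Hsa-miR-374b-3p and hsa-miR-421 did not differ beyond their spread over all 8 libraries, with a mean ratio of 1.05 (exact permutation p = 0.680, adjusted p = 0.680). Hsa-miR-374b-3p was higher in 3 of 8 libraries, all of them with ETBF, and lower in every control. The mean log2 difference was 0.31 with ETBF and -0.17 in controls, and these were not tested against each other. How readily each sequence enters a small RNA library differs between miRNAs and was not measured here.

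Both hairpins favoured the 5p arm, miR-374b far more than miR-374a. For miR-374a the 5p to 3p ratio of counts was 1.65, 2.20, 1.98 and 2.05 in ETBF replicates 1 to 4, against 2.06, 2.61, 3.04 and 3.21 in the controls. Control replicate 1 lay below ETBF replicate 2, so the groups overlapped. The mean log2 ratio was 0.97 ± 0.18 with ETBF and 1.43 ± 0.29 in controls, a difference of -0.46.

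For miR-374b the ratio was 16.4, 14.6, 20.8 and 22.8 in ETBF replicates 1 to 4, against 14.9, 24.6, 23.9 and 26.6 in the controls. The groups overlapped widely, since control replicate 1 was lower than 3 of the ETBF libraries. The mean log2 ratio was 4.20 ± 0.30 with ETBF and 4.46 ± 0.38 in controls. Their difference of -0.26 was below either SD, and it was -0.45 without control replicate 1 and -0.15 without ETBF replicate 2.

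A gain of the minor arm, the less abundant one of a hairpin, was common in these libraries. Among the 118 hairpin names with both arms tested, the minor arm gained on the major arm with ETBF in 75, with a median gain of 0.20 on the log2 scale. The gain of 0.46 for miR-374a was reached or passed by 38 of the 118 (32.2%, itself included), and the gain of 0.26 for miR-374b by 54 (45.8%). Of the minor arms 33 were called higher and 11 lower, and of the major arms 18 were called higher and 30 lower.

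The ratio of the paralogous 5p arms overlapped between the groups, and whether it stayed the same was not tested. Reads placed on the wrong paralog could alter it. The likeness of these arms was not compared, as hsa-miR-374a-5p had no matched sequence. The ratio of hsa-miR-374a-5p to hsa-miR-374b-5p was 0.684, 0.729, 0.759 and 0.783 in ETBF replicates 1 to 4, against 0.779, 0.831, 0.651 and 0.705 in the controls. The mean log2 ratio was -0.44 ± 0.08 with ETBF and -0.44 ± 0.16 in controls. For the neighbouring hairpins, the ratio of hsa-miR-374b-5p to hsa-miR-421 ran from 19.1 to 26.2 with ETBF and from 14.8 to 23.6 in controls, and the groups overlapped.

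**Figure D2:**
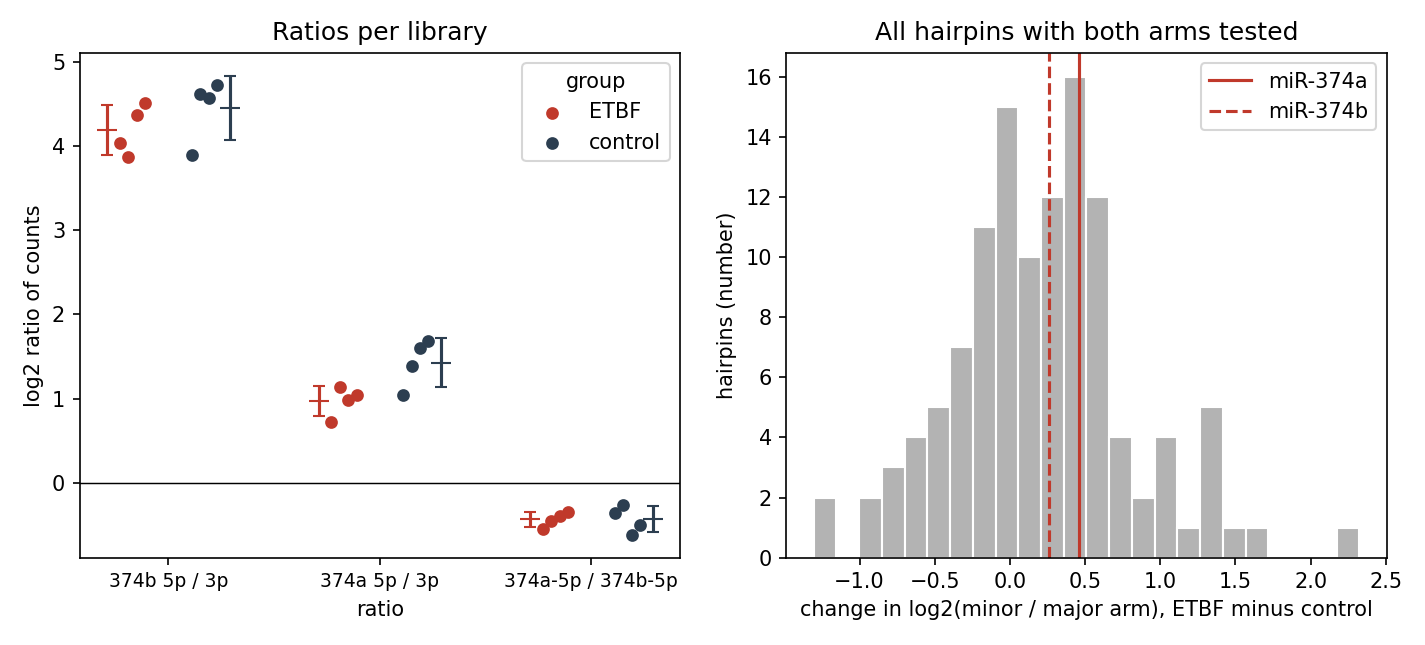
The left panel gives the log2 ratio of counts per library for the 5p over the 3p arm of each hairpin and for the paralogous 5p arms, ETBF left and control right, with mean and SD bars. The right panel counts the 118 hairpin names by the change in log2 minor over major arm, ETBF minus control, with lines at 0.46 for miR-374a and 0.26 for miR-374b, both inside the bulk of the distribution.

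The miR-374 arms with a sequence are poor in G and C. The mature GC content was 22.7% for hsa-miR-374a-3p, 31.8% for hsa-miR-374b-5p and hsa-miR-374b-3p, and 43.5% for hsa-miR-421, against a median of 47.6% over the 417 tested miRNAs with a sequence. Of 30 other tested miRNAs with up to 32% GC, a limit chosen after seeing the values, 9 were called higher (30.0%) and 0 lower, with a median log2 fold change of 0.17. In the narrower band up to 25% GC, which holds hsa-miR-374a-3p, 1 of 6 others was called higher (16.7%) and 0 lower. The median log2 fold change of these 6 was 0.26. Of the 383 others above 32% GC, 67 were called higher (17.5%) and 64 lower, with a median of -0.02.

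With the trend on GC content removed from each library, hsa-miR-374a-3p had a log2 fold change of 0.63, hsa-miR-374b-3p of 0.59, hsa-miR-374b-5p of 0.28 and hsa-miR-421 of 0.16. All 4 were smaller than without the removal and still above 0. The removal could not be applied to hsa-miR-374a-5p, which has no sequence in the table.

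**Figure D3:**
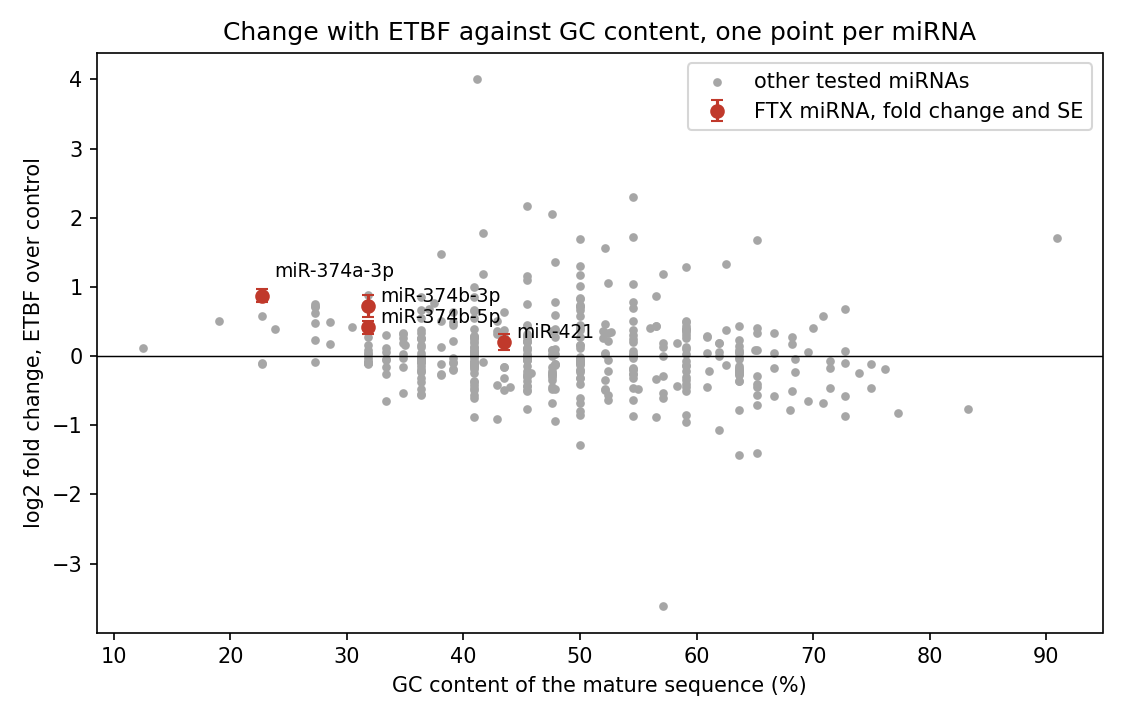
Log2 fold change, ETBF over control, against the GC content of the mature sequence in percent. Grey points are other tested miRNAs and red points, with SE bars, are the 4 FTX miRNAs with a sequence, which stand above 0 at 22.7% to 43.5% GC.

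Depth and marks of RNA quality also differed between the groups. After all libraries were thinned to 2591655 counts, the log2 fold changes of hsa-miR-374a-3p and hsa-miR-374b-5p were 0.88 and 0.43. Of 16 listed names whose sequence is close to ribosomal RNA, snoRNA or repeats, 15 were found in the files and 8 were tested, of which 5 were called higher and 0 lower. Their sum was 220 to 640 CPM with ETBF and 68.2 to 198 CPM in controls, 54.4% of it hsa-miR-6087, with hsa-miR-1290, hsa-miR-4454 and hsa-miR-7977 at 0. Their part in the change of the FTX miRNAs was not tested.

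All 9 listed colorectal epithelial miRNAs were detected, led by hsa-miR-200c-3p with 41.1% of their sum. Among them hsa-miR-192-5p and hsa-miR-194-5p averaged only 167 and 162 CPM over all libraries. The sums of the 9 were 26664 to 30290 CPM with ETBF and 30472 to 32431 CPM in controls. Of the 8 tested, 1 was called higher and 4 lower. Blood markers (7) summed to 71.2 to 105 CPM with ETBF and 58.4 to 68.0 CPM in controls, with 1 of 4 tested called higher, and hsa-miR-223-3p and hsa-miR-150-5p at no more than 3 counts over all libraries. Stromal, muscle and endothelial markers (7 of 8 listed found) summed to 1407 to 1618 CPM with ETBF and 1845 to 2024 CPM in controls. Of that sum 76.4% was hsa-miR-126-3p, the 1 of 4 tested that was called lower, and hsa-miR-206 was at 0. Neuronal and liver markers (4) summed to 7540 to 9617 CPM with ETBF and 7798 to 9796 CPM in controls, 99.9% of it hsa-miR-9-5p, with 0 of 3 tested called (edgeR) and hsa-miR-124-3p at 0. The part of these markers in the change of the FTX miRNAs was not tested.

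Other miRNAs of chromosome X went both ways. Only those with a matched sequence were counted. Of 35 such miRNAs whose hairpins all lie there, 6 were called higher (17.1%) and 3 lower (8.57%). Their median log2 fold change was -0.00. Over all 480 tested miRNAs the shares were 19.8% and 14.6%, and over the 417 with a matched sequence 18.9% and 15.3%. Names without one were left out, among them hsa-miR-221-5p (log2 fold change -0.20, edgeR adjusted p = 0.0937) and hsa-miR-660-5p (0.42, edgeR adjusted p = 0.000731). How the shares would change with them was not worked out. Those named below were picked by level among the 35, and none of them is among the 6 called higher. The most abundant of the 35 were hsa-miR-221-3p and hsa-miR-222-3p, which share a cluster and repress the cell cycle inhibitor CDKN1B. Hsa-miR-222-3p fell to 6134 ± 318 CPM with ETBF, against 9480 ± 549 CPM in controls, a log2 fold change of -0.63 (edgeR adjusted p = 2.94e-06). Hsa-miR-221-3p was at -0.11 (edgeR adjusted p = 0.205) and hsa-miR-98-5p, a let-7 relative, at -0.08 (edgeR adjusted p = 0.414). Hsa-miR-532-5p, from an intron of the chloride channel gene CLCN5, fell by 0.64 on the log2 scale (edgeR adjusted p = 8.89e-06).

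The miRNAs whose pattern over the 8 libraries was most like that of the abundant 5p arms were found by the root mean square difference of log2 CPM after each miRNA was centred on its own mean, so it includes the difference between the groups. For hsa-miR-374b-5p the nearest were hsa-miR-18a-5p (0.060), hsa-miR-19a-3p (0.103) and hsa-miR-93-5p (0.105), where the median over all non-members was 0.367. For hsa-miR-374a-5p they were hsa-miR-30d-3p (0.083), hsa-miR-182-3p (0.088) and hsa-miR-93-5p (0.100), with a median of 0.357. The 2 members stood 0.108 from each other. Of the 5 miRNAs named as nearest, hsa-miR-93-5p averaged 3066 CPM with ETBF and 2218 CPM in controls, a log2 fold change of 0.47. The log2 fold change was 0.38 for hsa-miR-18a-5p, 0.26 for hsa-miR-19a-3p, 0.54 for hsa-miR-30d-3p and 0.36 for hsa-miR-182-3p. As the difference between the groups helped to choose them, these values are a description only.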

How the data were processed

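Small RNA of HCT116 cells was counted in 8 libraries, grouped by their titles. The authors deposited raw counts per mature miRNA name. Trimmomatic, FastQC and featureCounts on GRCh37.p5 are named per the submitters' processing notes; the aligner, versions, annotation release and strandedness were not stated. No member's counts shared a common factor above 1. Library pairs within a group differed by more than counting noise (chi-square over its degrees of freedom, 18.4 to 112).

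Counts were fitted in R 4.3.3 with edgeR 4.0.16 (quasi-likelihood F test, TMM, filterByExpr at a minimum count of 10, Benjamini-Hochberg over 480 names, which held at least 99.9% of each library). SE is |log2 fold change|/√F. Ratios add 0.5 to each count. The code was tested on simulated data. Members and lists were chosen with earlier results of these data known. Named were the 5 members, other FTX locus miRNAs and the 3 most alike per abundant member. Also named were the 4 most abundant others of chromosome X among those with a matched sequence. Alternatives were other scalings and filters, DESeq2 1.42.0, limma-voom (limma 3.58.1), a replicate block, thinning, GC-trend removal (loess, span 0.75) and leaving out each library.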

Additional observations from a re-analysis of the deposited data

How the results depend on the processing

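All 4 miR-374 arms were called higher, and miR-421 was not, in each of the 10 alternatives to scaling, filter, tool, block, depth and GC content and without each library in turn (hsa-miR-374a-5p without a GC correction). Over these 10 (9 for hsa-miR-374a-5p), the log2 fold change ran from 0.63 to 0.93 for hsa-miR-374a-3p and from 0.34 to 0.48 for hsa-miR-374a-5p. It ran from 0.59 to 0.80 for hsa-miR-374b-3p, from 0.28 to 0.47 for hsa-miR-374b-5p and from 0.12 to 0.26 for hsa-miR-421. Only hsa-miR-374a-3p moved by more than its SD between replicates, to 0.63 with the GC trend removed. Without each library in turn the ranges were 0.81 to 0.94, 0.36 to 0.47, 0.52 to 0.83, 0.34 to 0.48 and 0.13 to 0.26 in the same order. The call counts over all tested miRNAs, 95 higher and 70 lower, ran from 71 to 106 and from 59 to 89. The tested names numbered 480, but 1496 without a filter, 294 at a minimum count of 50 and 404 after thinning. The calls of the FTX miRNAs rest on the same libraries each time. The members were proposed with this comparison known, so nothing is read from those calls. In the control libraries alone, and in the ETBF libraries alone, the exact permutation test over 4 libraries cannot go below p = 0.125, so no neighbouring pair could pass. The differences were then 0.44 in both for hsa-miR-374b-5p over hsa-miR-374a-5p, 1.43 in controls and 0.97 with ETBF for the miR-374a arms, and 2.59 in controls and 2.79 with ETBF for the 3p arms. Hsa-miR-374b-3p over hsa-miR-421 turned to -0.17 in controls alone and ran from -0.040 (without ETBF replicate 2) to 0.13 without each library in turn; the cause was not tested. Same-numbered libraries did not deviate together (correlation across miRNAs of -0.06 to 0.06), and no ETBF library was closest to the control of its own number. The reverse was not examined. With the replicate number as a block 92 miRNAs were higher and 67 lower, and hsa-miR-374a-3p was at 0.88. At this depth hsa-miR-421 and hsa-miR-374b-3p carried counting errors of 7.85% to 8.95% a library, which limits what could be seen of a change as small as that of miR-421.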
